A study of Mus musculus with 4 samples.

Results

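Cells store iron in ferritin, a shell built of heavy chains (*Fth1*), which oxidise iron, and light chains (*Ftl1*), which help to lay it down as mineral. They take iron up as transferrin (*Trf*) bound to the transferrin receptor (*Tfrc*), reduce it in the endosome with the reductase *Steap3* and move it into the cytosol through DMT1 (*Slc11a2*), while NRAMP1 (*Slc11a1*) moves metal ions out of the phagosome. Ferroportin (*Slc40a1*) is the known exporter of iron, *Ncoa4* delivers ferritin for breakdown, and the product of *Ireb2* is one of the iron regulatory proteins that bind iron-responsive elements in mRNAs. Macrophages that clear dead cells and heme are known to recycle iron in this way, and BACH1, a repressor of transcription released by heme, is known to bind the control regions of *Hmox1*, the heme-degrading enzyme, and of ferritin and ferroportin genes.

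These 10 genes were taken by symbol, and each was found on 1 row among the 27998 genes of the 4 count matrices. The matrices came from CD45+ cells, that is leukocytes held on magnetic beads, of the tibialis anterior muscle of male C57BL/6J mice 8 to 12 weeks old, all injured with cardiotoxin, a venom component that kills muscle fibres. At 2 and at 4 days after injury (dpi2 and dpi4) there was 1 control library, from Bach1 fl/fl littermates without Cre, and 1 library labelled KO, from Bach1 fl/fl mice with Lyz2-Cre (Bach1-cKO). The floxed region is exon 4, which encodes the DNA-binding part of BACH1, and Cre under the *Lyz2* promoter is active in monocytes, macrophages and neutrophils but can leave single cells unrecombined. With 1 library per group there was no spread between mice to test against, and no test of genotype or time was made.

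The kept cells were 5721 in the control and 3684 in the KO library at dpi2, and 4173 and 3433 at dpi4, with a median of 10702 to 15157 UMIs (distinct RNA molecules) per cell, and pairs of libraries shared 2 to 14 cell barcodes. Clusters were named from fixed markers, which gave 1866, 1036, 2920 and 2555 macrophages in the control dpi2, KO dpi2, control dpi4 and KO dpi4 libraries, an order used throughout for values given in fours. Monocytes numbered 2578, 991, 49 and 66, neutrophils 632, 827, 128 and 35, dendritic cells 318, 246, 401 and 436, and T or NK cells 101, 36, 78 and 132. Over all kept cells *Bach1* stood at 188.4, 187.1, 210.5 and 217.0 counts per 1000000 UMIs (CPM), and counts per gene cannot show the loss of exon 4. In macrophages its KO to control ratio was 1.17 at dpi2 and 1.06 at dpi4, so the labels are not checked by the targeted gene. *Lyz2*, the gene that carries the Cre in this kind of mouse, stood at 9465 and 16284 CPM in the control libraries and at 17.4 and 21.9 CPM in the libraries labelled KO. Every ratio of KO to control therefore compares libraries that differ in *Lyz2* as well as in the floxed gene, and their parts were not tested. *Hmox1* was 499.4 and 423.6 CPM in control and 8226 and 6362 CPM in KO. *Spic*, a transcription factor known from iron-recycling macrophages, was 1.73, 80.2, 14.0 and 224.3 CPM in macrophages. Summed CPM of 5 erythroid markers in macrophages stayed between 0.135 and 1.42.

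The iron-responsive elements of the members are shown because they are stretches of mRNA that the *Ireb2* product is known to bind, at the 5′ end of ferritin mRNAs, where binding blocks translation, and at the 3′ end of *Tfrc* mRNA, where binding protects it from decay. Each match holds the loop CAGTGN, shown in capitals, between arms of 5 bases that pair, below an unpaired C, read from GENCODE transcripts of GRCm38. A match of this kind was present in a UTR of 160 of 21877 genes (0.731%).
*Fth1*, 5′ UTR, chr19:9982733-9982759, plus strand: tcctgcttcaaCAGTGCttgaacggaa
*Ftl1*, 5′ UTR, chr7:45459780-45459806, minus strand: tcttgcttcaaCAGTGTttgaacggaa
*Tfrc*, 3′ UTR, chr16:32631220-32631246, plus strand: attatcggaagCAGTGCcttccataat
*Tfrc*, 3′ UTR, chr16:32631599-32631625, plus strand: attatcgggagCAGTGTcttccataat
*Tfrc*, 3′ UTR, chr16:32631664-32631690, plus strand: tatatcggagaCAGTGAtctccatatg
*Tfrc*, 3′ UTR, chr16:32631711-32631737, plus strand: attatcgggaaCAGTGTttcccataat
Matches were recorded only for the 7 members with an entry among the promoters described next, and these 3 held one. *Slc40a1*, *Trf* and *Slc11a2* had no such entry, so whether their mRNAs hold a match was not recorded. *Slc40a1* and *Slc11a2* mRNAs are also known targets of iron regulatory proteins. For the members recorded, no match says only that these letters were not found. In the RefSeq promoters of GRCm38.p6, which run from 250 bases before to 50 bases after a start, 7 of the 10 members had an entry, and *Slc40a1*, *Trf* and *Slc11a2* had none. The core of the antioxidant response element, TGACNNNGC, was searched on both strands and stood in 12.4% of all 32851 promoters, and the AP-1 or MARE core TGANTCA in 7.81%. Among the promoters of these 7 a single match was found, of the first motif, at one start of *Ncoa4* (chr14:32165736-32165762, plus strand, motif in capitals, first base of the motif 44 bases before the start).
*Ncoa4*: ggcggggcgTGACCTGGCcggtagggt

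On GRCm38 the members lie apart from each other. *Fth1* (ENSMUSG00000024661) spans chr19:9980598-9985098 and *Ftl1* (ENSMUSG00000050708) chr7:45457944-45459884. *Slc40a1* (ENSMUSG00000025993) spans chr1:45908068-45926523, *Slc11a1* (ENSMUSG00000026177) chr1:74375195-74386062 and *Steap3* (ENSMUSG00000026389) chr1:120190757-120272705. *Tfrc* (ENSMUSG00000022797) spans chr16:32608920-32632794, *Slc11a2* (ENSMUSG00000023030) chr15:100387898-100425072 and *Ncoa4* (ENSMUSG00000056234) chr14:32159865-32179855, whereas *Trf* (ENSMUSG00000032554, chr9:103204001-103230444) and *Ireb2* (ENSMUSG00000032293, chr9:54863789-54912530) share chromosome 9. Of the 441 windows of 60 bases in the last 500 bases of the longest coding transcript, 335 of *Ftl1* (76.0%) also occurred in transcripts of other genes, among them the pseudogenes *Ftl1-ps1* and *Ftl1-ps2*. For *Trf* 157 windows (35.6%) were shared with the gene model *Gm20425*, for *Fth1* 48 (10.9%) with *Gm6977* and for *Slc11a1* 4 (0.907%), and for the other members none. Of these gene models *Gm20425* was among the counted genes, and those named for *Ftl1* and *Fth1* were not. Whether reads from such stretches were lost in counting was not tested, so the level of *Ftl1* relative to *Fth1*, and that of *Trf*, is uncertain.

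A level is given as CPM, the summed UMIs of a gene in a class of cells of 1 library per 1000000 UMIs of that class. Each UMI stands for 1 mRNA 3′ end whatever the length of the gene. Intervals are 95% exact Poisson intervals for levels and exact binomial intervals for ratios of KO to control, and cover counting error only. A ratio was called past the size rule where it was at least 2-fold in either direction, its interval left out 1 and the 2 libraries together held at least 50 UMIs of the gene.

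**Figure D1:**
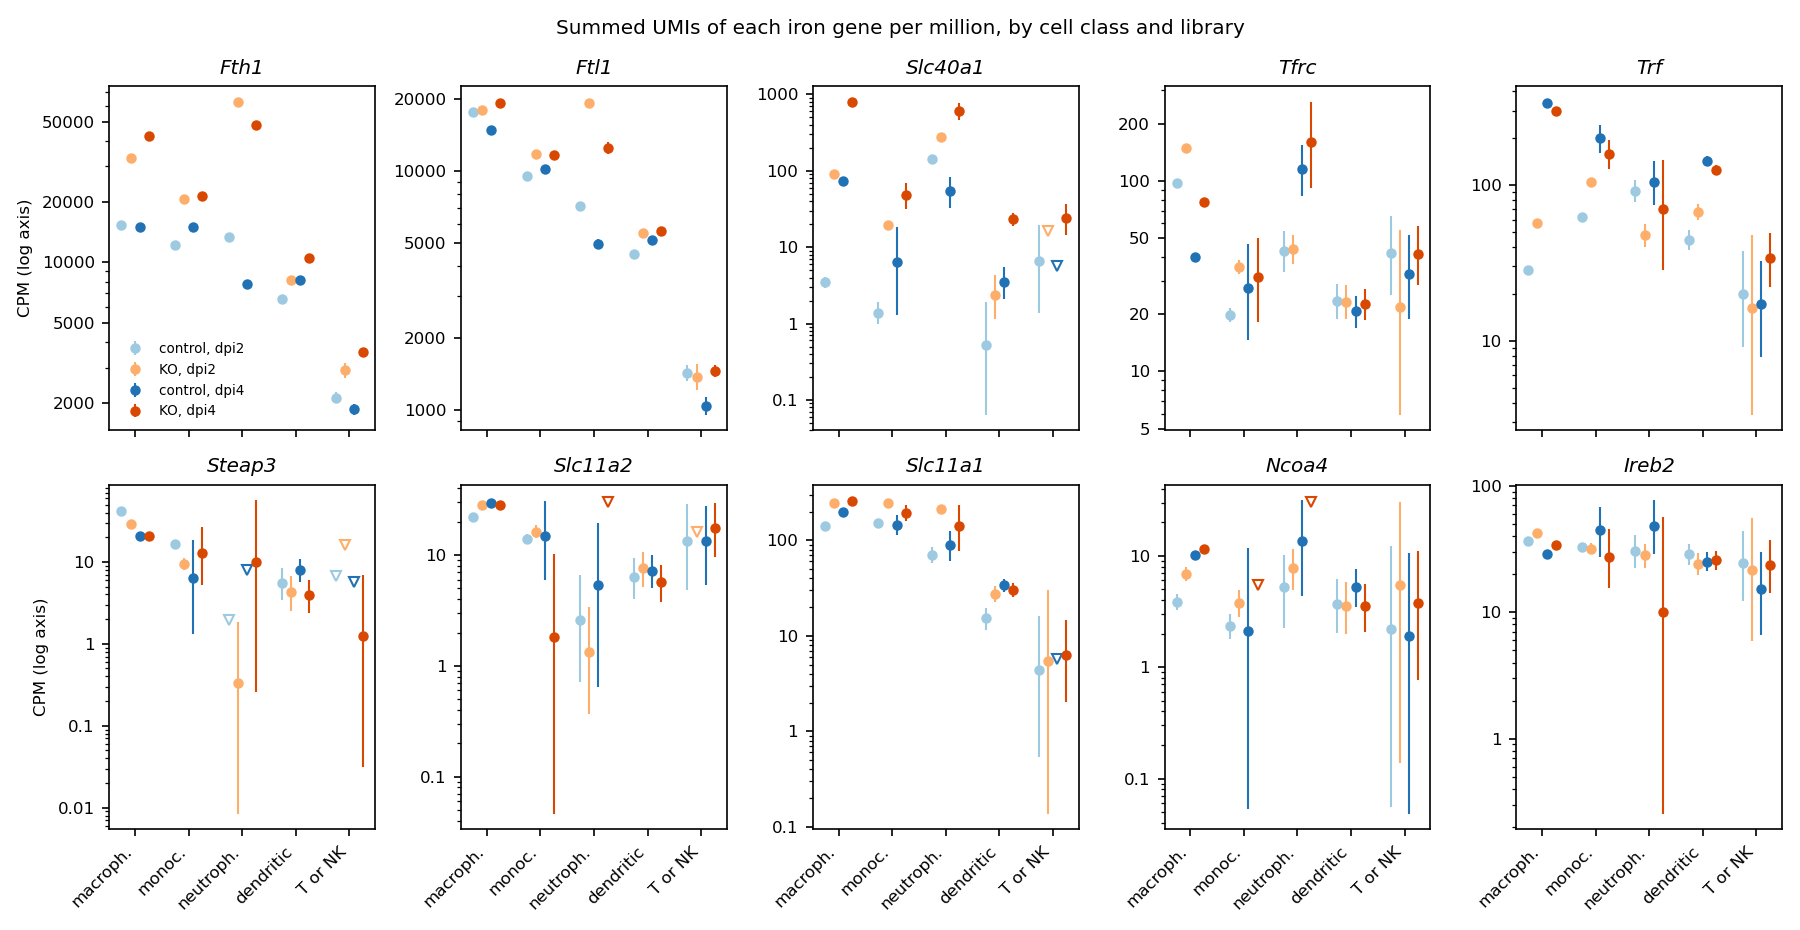
Level of each of the 10 iron genes, in CPM on a log axis, in 5 cell classes and 4 libraries (blue control, orange KO; light dpi2, dark dpi4), with 95% Poisson intervals and an open triangle at the level of 3 counts where no UMI was found. *Fth1* and *Slc40a1* stand higher in KO than in control macrophages, 32927 against 15276 CPM and 89.5 against 3.46 CPM at dpi2, whereas *Ireb2* lies between 29.1 and 42.0 CPM in all 4 macrophage libraries.

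Ferritin heavy chain was higher in KO than in control macrophages at both times. In macrophages *Fth1* at dpi2 was 15276 CPM (95% interval 15237 to 15316) without Cre and 32927 CPM (32862 to 32993) with Cre. At dpi4 it was 15039 CPM (15007 to 15072) without and 42338 CPM (42279 to 42398) with Cre. The KO values were 2.16-fold (2.15 to 2.16) and 2.82-fold (2.81 to 2.82) the control values, both past the size rule. Within the sub-clusters of monocytes and macrophages with at least 50 cells in both libraries, *Fth1* was above control in 8 of 8 at dpi2, but past the rule in 3, with ratios from 1.39 to 2.10. In sub-cluster 0, led by *Hmga2*, *Htr2b* and *Fabp4*, the dpi2 ratio was 1.41 (1.40 to 1.42). At dpi4 all 6 were past the rule, from 2.34 to 2.87. Both KO libraries lay above both control libraries, of which the later was 0.985-fold the earlier.

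*Ftl1*, the light chain, did not follow in macrophages. Its level was 17732, 17977, 14791 and 19294 CPM. KO was 1.01-fold (1.01 to 1.02) control at the earlier and 1.30-fold (1.30 to 1.31) at the later time, neither past the size rule. There were accordingly 0.862 *Fth1* UMIs per *Ftl1* UMI in control and 1.83 in KO macrophages at dpi2, and 1.02 and 2.19 at dpi4. Heavy and light chain together took up 3.30% and 5.09% of all macrophage UMIs at dpi2 and 2.98% and 6.16% at dpi4.

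Neutrophils showed the widest ferritin difference. *Fth1* was 13312 CPM (13131 to 13496) in control and 62491 CPM (62208 to 62775) in KO neutrophils at dpi2, and 7807 CPM (7525 to 8096) and 47983 CPM (46629 to 49366) at dpi4. The ratios were 4.69 (4.63 to 4.76) and 6.15 (5.87 to 6.44), and *Fth1* in KO neutrophils exceeded that in KO macrophages at both times. Here *Ftl1* was also past the size rule, at 7159 and 19372 CPM at dpi2, a ratio of 2.71 (2.65 to 2.76), and at 4969 and 12505 CPM at dpi4, a ratio of 2.52 (2.34 to 2.71). The heavy to light ratio of UMIs was 1.86 in control and 3.23 in KO neutrophils at dpi2 and 1.57 and 3.84 at dpi4. Both chains together made up 8.19% and 6.05% of UMIs in the KO libraries against 2.05% and 1.28% in control. A shallow unnamed cluster with neutrophils as its best class, described further below, was not part of these values. Its control *Fth1* at dpi2 lay above that of the named KO neutrophils. In alternative runs the neutrophil log2 ratio of *Fth1* ranged from 1.73 to 2.54 at dpi2, against 2.23 in the main run.

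Monocytes had a smaller difference than either, with *Fth1* at 12185, 20662, 14944 and 21315 CPM and ratios of 1.70 (1.69 to 1.70) and 1.43 (1.39 to 1.47), below the size rule. The dpi4 values rest on 49 and 66 cells. In dendritic cells *Fth1* was 6600, 8190, 8131 and 10531 CPM, with ratios of 1.24 and 1.30. T or NK cells, which are not of the myeloid lineage, had the lowest *Fth1*, at 2126, 2917, 1862 and 3575 CPM, yet also 1.37-fold (1.23 to 1.53) and 1.92-fold (1.79 to 2.07) more in KO, and *Hmox1* in these cells stood at 13.3, 238.6, 15.3 and 243.8 CPM. Their heavy to light ratio of UMIs, 1.49, 2.12, 1.80 and 2.46, was also higher in KO. In alternative runs the T or NK log2 ratio of *Fth1* ranged from 0.46 to 1.79 at dpi2 and from 0.04 to 0.96 at dpi4. That in dendritic cells ranged from 0.24 to 1.11 and from -0.05 to 0.86, so its direction at dpi4 was not kept. How much of the small differences in dendritic and T or NK cells came from RNA free in the droplets was not tested.

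**Figure D2:**
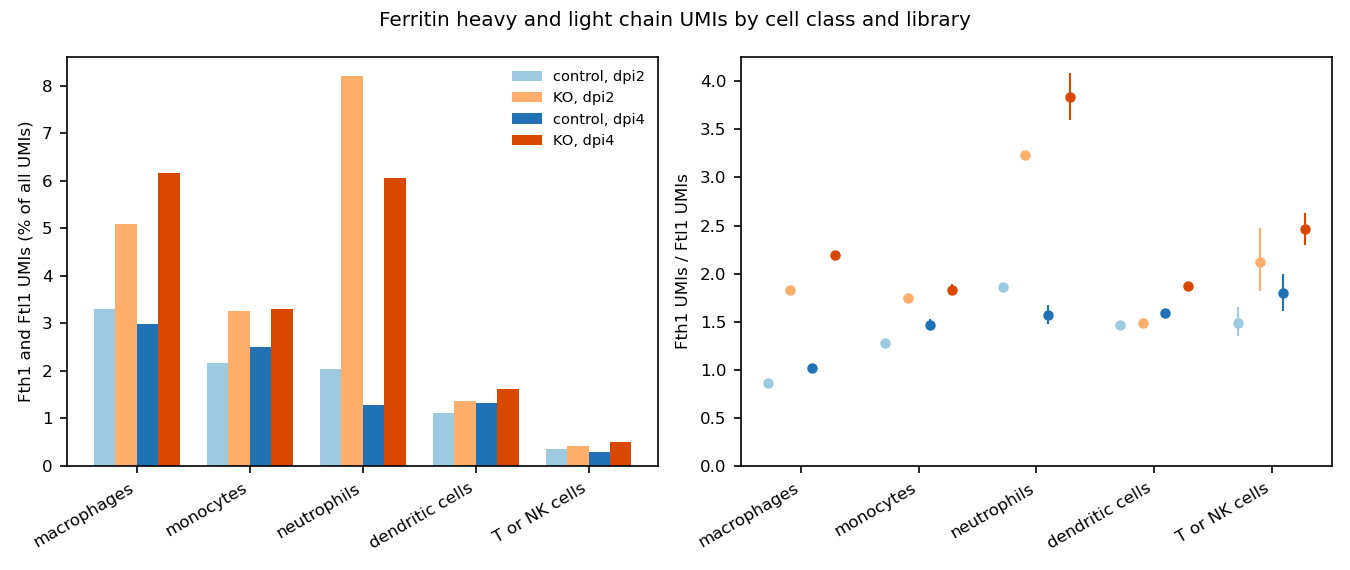
Left, share of all UMIs of a class that were *Fth1* or *Ftl1*, in percent; right, *Fth1* UMIs per *Ftl1* UMI with 95% intervals, for 5 cell classes and 4 libraries (blue control, orange KO; light dpi2, dark dpi4). The ratio of heavy to light chain reaches 3.23 and 3.84 in KO neutrophils and 1.83 and 2.19 in KO macrophages, against 0.862 and 1.02 in control macrophages.

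Ferroportin, the exporter, had the largest KO to control ratio of any member in macrophages. *Slc40a1* stood at 3.46 CPM (2.89 to 4.11) in control and 89.5 CPM (86.1 to 92.96) in KO macrophages at dpi2, and at 73.3 CPM (71.1 to 75.6) and 792.5 CPM (784.4 to 800.7) at dpi4. The ratios were 25.9 (21.7 to 31.1) and 10.8 (10.5 to 11.2). The level was also higher at dpi4 than at dpi2 within each genotype, 21.2-fold (17.8 to 25.4) in control and 8.86-fold (8.51 to 9.22) in KO, and KO macrophages at dpi2 (89.5 CPM) lay nearest to control macrophages at dpi4 (73.3 CPM).

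At dpi2 the named macrophages of the 2 libraries were largely different clusters, which bears on every macrophage ratio at that time. Of the control macrophages 62.3% lay in cluster 2, led by *Hmga2*, *Htr2b* and *Pdpn*, and 24.2% in cluster 9, led by *Cd163*, *Gja1* and *Ppbp*. Of the KO macrophages 30.9% lay in cluster 9 and 18.2% in cluster 2, and most of the others in a cluster that is not described here. At dpi4 the cluster led by *Slc40a1*, *Vcam1* and *Gdf15*, number 1, held 21.5% of control and 34.7% of KO macrophages, although none of the iron genes had been used for clustering.

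Within sub-clusters of monocytes and macrophages KO was again above control. At dpi2, 8 sub-clusters had at least 50 cells in both libraries; *Slc40a1* was higher in KO in each of the 8, by ratios from 1.55 to 68.6, and past the size rule in 5, while 2 had under 50 UMIs. The ratio of 68.6 (31.9 to 175.7), in sub-cluster 0, rests on 7 control UMIs, and that of 43.2 (14.1 to 215.3), in sub-cluster 10, on 3. In sub-cluster 7, led by *Gja1*, *Cd163* and *Ppbp*, the level was 5.72 CPM in control and 82.7 CPM in KO, a ratio of 14.5 (10.7 to 19.96). The smallest ratio, 1.55 (0.864 to 3.07), was in sub-cluster 13, led by *S100a9*, *S100a8* and *Vcan*, and its interval held 1.

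At dpi4 the ratio was past the size rule in all 6 sub-clusters that could be compared, from 5.90 (5.49 to 6.36) in sub-cluster 8, led by *Mmp12*, *Mfge8* and *Mamdc2*, to 34.7 (27.6 to 44.3) in sub-cluster 11, led by the interferon-inducible *Iigp1* with *Serpina3g* and *Ifit2*. Sub-cluster 1, led by *Samd4*, *Sepp1* and *Gpr34*, had 104.1 CPM in control and 1166 CPM in KO. The highest level, 1349 CPM, was in sub-cluster 12, led by *Slc40a1* itself with *Il18bp* and *Epb41l3*, which had 439 cells of the KO and 34 of the control library at dpi4 and none at dpi2. That sub-cluster held 30.8% of the *Slc40a1* UMIs of KO monocytes and macrophages at dpi4. Without it the KO and control macrophages had 669.3 and 68.8 CPM, a ratio of 9.73 (9.40 to 10.1).

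**Figure D3:**
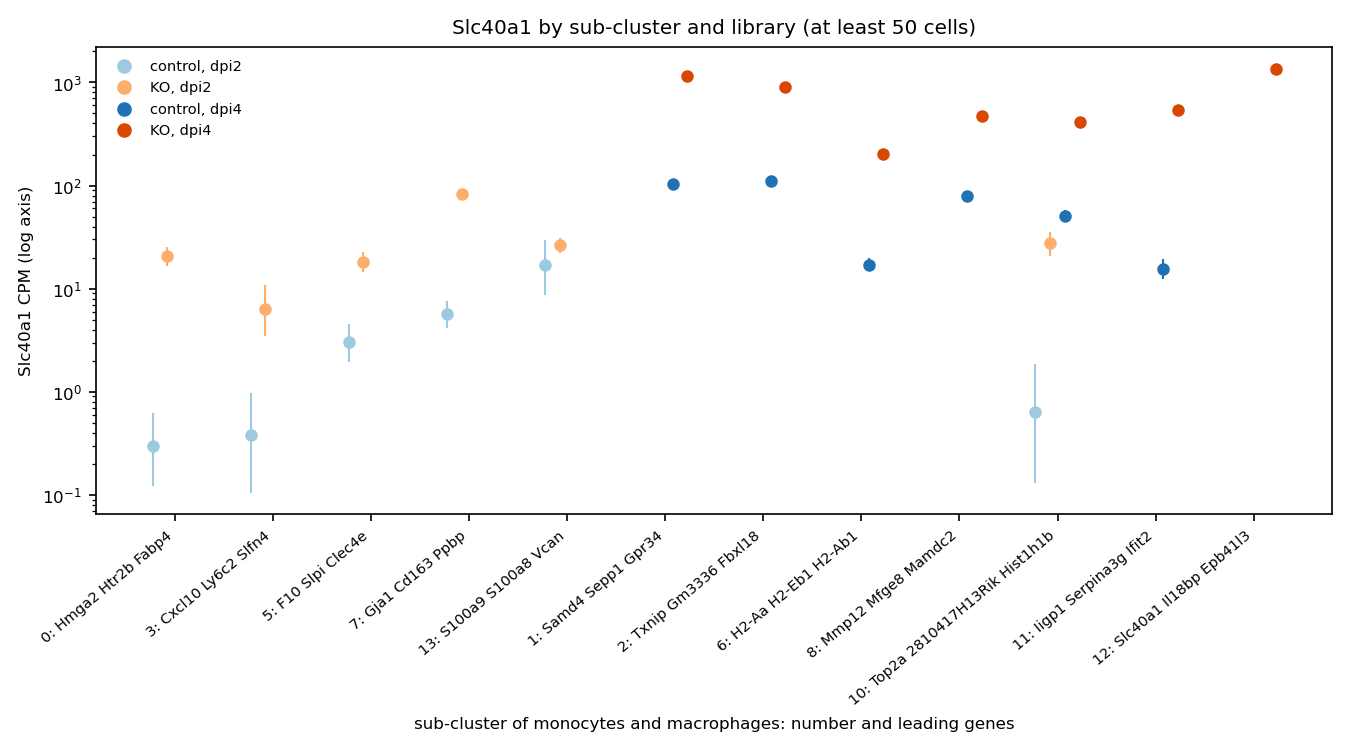
*Slc40a1* level in CPM, on a log axis, in each sub-cluster of monocytes and macrophages with at least 50 cells in a library except 2 that are not shown, named by number and 3 leading genes, with 95% Poisson intervals (blue control, orange KO; light dpi2, dark dpi4). The KO point lies above the control point of the same time in each sub-cluster drawn that has both, from 1.55-fold in sub-cluster 13 to 68.6-fold in sub-cluster 0, where the control point rests on 7 UMIs.

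The share of macrophages with a transcript was also counted. After each cell was thinned to 2000 UMIs, which left out 13, 4, 51 and 56 shallower macrophages, at least 1 *Slc40a1* UMI was found in 0.432% (95% exact binomial interval 0.187 to 0.849) of control and 10.5% (8.66 to 12.5) of KO macrophages at dpi2, and in 7.95% (6.98 to 9.0) and 54.3% (52.3 to 56.2) at dpi4. Unthinned, 1.61%, 28.4%, 24.4% and 76.9% of macrophages had a UMI, at median depths of 18757, 27024, 16442 and 15418 UMIs. In T or NK cells, given as a gauge of free RNA although few and shallow, the thinned shares were 1.01% (0.0256 to 5.50), 0 of 36 cells, 0 of 73 cells and 3.91% (1.28 to 8.88), and the median depth was 3950 to 4949 UMIs. For 0 of 36 and 0 of 73 cells the exact intervals reach 9.74% and 4.93%, and 3 cells would be 8.33% and 4.11%. In dendritic cells the shares were 0 of 312 cells, with an exact interval that reaches 1.18%, then 0.833% (0.101 to 2.98), 0.503% (0.0609 to 1.80) and 4.47% (2.71 to 6.89). In control macrophages at dpi2 the interval of the share lay within that of dendritic cells, 0 to 1.18%, which limits detection at 2000 UMIs only. By sub-cluster the level in that library was 5.72 CPM (4.19 to 7.63) in number 7 and 0.301 CPM (0.121 to 0.620) in number 0. In monocytes the shares were 0.118% (0.0242 to 0.343), 2.94% (1.98 to 4.20), 2.04% (0.0517 to 10.9) and 6.25% (1.73 to 15.2). In each library this interval overlapped that of dendritic cells.

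**Figure D4:**
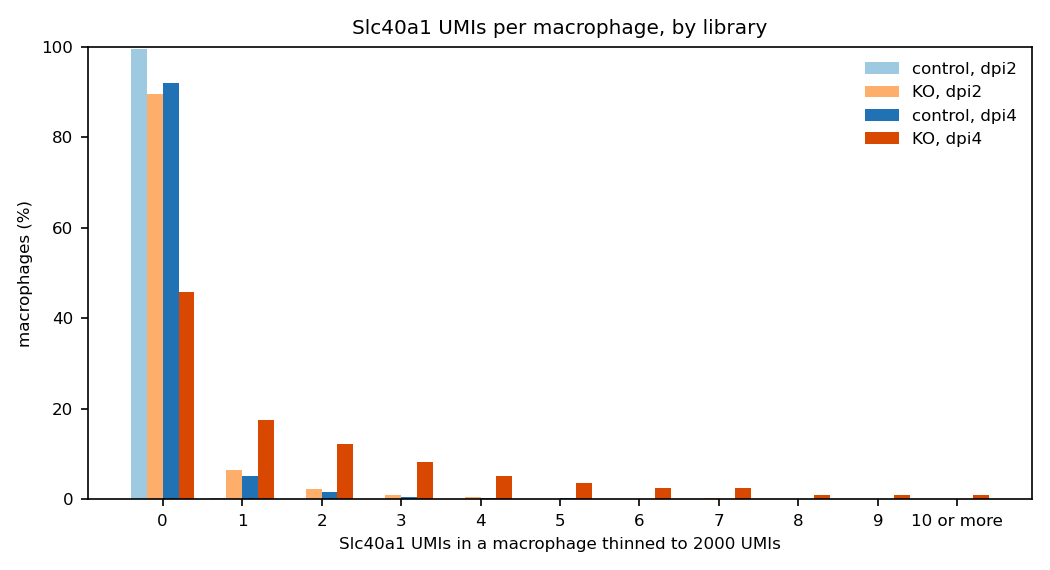
Distribution of *Slc40a1* UMIs over macrophages thinned to 2000 UMIs each, as the percentage of macrophages of a library with 0, 1, 2 and up to 10 or more UMIs (blue control, orange KO; light dpi2, dark dpi4). In the KO dpi4 library 45.7% of the cells had none, against 89.5% to 99.6% in the other 3 libraries.

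Neutrophils carried *Slc40a1* in every library. Its level was 141.7 CPM (123.5 to 161.8) in control and 279.1 CPM (260.5 to 298.7) in KO neutrophils at dpi2, a ratio of 1.97 (1.69 to 2.30), just under the size rule, and 53.8 CPM (32.9 to 83.1) and 605.1 CPM (461.7 to 778.9) at dpi4, a ratio of 11.3 (6.68 to 19.7) that rests on 20 and 60 UMIs. In the control dpi2 library neutrophils stood above every other class, 21.3-fold over T or NK cells, the next, whose 3 UMIs came from 1 cell, whereas at dpi4 macrophages had the highest value and did not differ from neutrophils beyond counting error in control. Summed CPM of the 11 macrophage markers in neutrophils was 646.9, 520.4, 3570 and 2763, against 12064, 13337, 41053 and 33547 in macrophages, and the part of carried-over macrophage RNA in the neutrophil level was not tested. Macrophages of the control dpi2 library themselves had 3.46 CPM. Thinned, 18.3%, 32.6%, 7.56% and 59.4% of neutrophils had a UMI, after 167, 55, 9 and 3 shallower cells were left out. A cluster of 579 shallow cells led by *Il1f9*, *Mirt1* and *Pdcd1lg2*, of which 476 came from the KO dpi2 library, had neutrophils as its best class but stayed unnamed; its *Slc40a1* was 200.7 CPM in control and 274.0 CPM in KO at dpi2 and its *Fth1* 64083 and 76992 CPM.

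In monocytes at dpi2 *Slc40a1* was 1.39 CPM (0.983 to 1.91) in control and 19.6 CPM (17.4 to 22.1) in KO, a ratio of 14.1 (10.04 to 20.4), past the size rule, while T or NK cells of that KO library had 0 UMIs, where 3 counts would be 16.3 CPM, and dendritic cells of that library had 2.37 CPM (1.14 to 4.36). The dpi2 monocytes of the libraries were largely different clusters: of the KO cells 54.7% lay in cluster 11, led by *Vcan*, *Dmkn* and *Il6*, and of the control cells 44.4%, 25.9% and 25.6% in clusters 3, 10 and 8, led by *Ifitm6*, *Cxcl10* and *F10*. In sub-cluster 13, with *Vcan* among its leading genes, the ratio was the 1.55 given above. Dendritic cells had 0.527, 2.37, 3.51 and 23.1 CPM; the dpi4 ratio of 6.58 (3.99 to 11.5) passed the rule, and T or NK cells of the same KO library had a like level, 23.8 CPM (14.3 to 37.1). The part of free RNA in both was not tested.

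The importers gave smaller differences. *Tfrc*, the transferrin receptor, was 97.7 CPM (94.6 to 100.9), 150.2 CPM (145.8 to 154.7), 39.7 CPM (38.1 to 41.4) and 77.7 CPM (75.2 to 80.3) in macrophages. KO was higher than control at both times, by 1.54-fold (1.47 to 1.61) and 1.96-fold (1.85 to 2.06), the latter just under the size rule. The dpi4 libraries were lower than the dpi2 libraries in both genotypes, by ratios of 0.406 (0.385 to 0.429) in control, past the size rule, and 0.517 (0.495 to 0.541) in KO. Among sub-clusters, *Tfrc* passed the rule upward at dpi4 in 3 of 6, with ratios up to 2.89, and at dpi2 in 1 of 8. At dpi2 the ratio was below 1 in 2 of the 8, among them sub-cluster 13, led by *S100a9*, with 0.675 (0.495 to 0.939). Sub-cluster 10, led by the cell-cycle gene *Top2a*, had 117.2 and 126.1 CPM at dpi2 and 81.6 and 98.9 CPM at dpi4, with ratios of 1.08 (0.928 to 1.25) and 1.21 (1.06 to 1.40). In neutrophils *Tfrc* was 42.9, 43.8, 115.7 and 161.4 CPM, with intervals of both ratios that held 1.

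*Trf*, transferrin, was higher in KO at dpi2 and lower in KO at dpi4. In macrophages it was 28.3 CPM (26.6 to 30.1) and 57.0 CPM (54.3 to 59.8) at dpi2, a KO to control ratio of 2.01 (1.86 to 2.18) at the edge of the size rule, and 337.0 CPM (332.1 to 341.9) and 297.9 CPM (292.9 to 302.9) at dpi4, a ratio of 0.884 (0.865 to 0.904). Both dpi4 libraries were far above both dpi2 libraries, 11.9-fold (11.2 to 12.7) in control and 5.23-fold (4.97 to 5.50) in KO. In the 8 sub-clusters compared at dpi2 the ratio was above 1 in all, from 1.24 to 2.88, and at dpi4 it lay between 0.802 and 1.001. The dpi2 call was lost in 4 of the alternative settings, which gave log2 ratios from 0.76 to 0.96 in place of 1.01. In monocytes *Trf* was 62.4 and 103.9 CPM at dpi2, a ratio of 1.67 (1.55 to 1.79), and in neutrophils 91.7 and 47.5 CPM, a ratio of 0.518 (0.408 to 0.659).

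*Steap3*, the endosomal reductase, was the only member whose macrophage level was lower in KO at dpi2, at 42.3 CPM (40.3 to 44.5) in control and 29.4 CPM (27.4 to 31.4) in KO, a ratio of 0.693 (0.638 to 0.754). At dpi4 the values were 20.8 and 20.7 CPM, a ratio of 0.997 (0.914 to 1.09). Monocytes at dpi2 had 16.7 and 9.53 CPM, a ratio of 0.570 (0.467 to 0.693), and the ratio was past the size rule downward in 2 of the 8 sub-clusters, 0.445 (0.304 to 0.637) in the one led by *F10* and 0.478 (0.256 to 0.958) in the one led by *S100a9*. Neutrophils had 0, 1, 0 and 1 UMIs of *Steap3*, where 3 counts would be 1.95, 1.004, 8.07 and 30.3 CPM. In dendritic cells at dpi4 the ratio of 0.490 (0.272 to 0.855) passed the rule on 41 and 20 UMIs, a call that 6 of the alternatives did not keep.

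The metal transporter *Slc11a2* was 22.0, 28.5, 29.6 and 28.1 CPM in macrophages, with ratios of 1.30 (1.18 to 1.43) and 0.948 (0.881 to 1.02). Its relative *Slc11a1*, known as a resistance gene of phagocytes, was 142.2 CPM (138.4 to 146.0), 248.7 CPM (243.1 to 254.4), 196.6 CPM (193.0 to 200.4) and 256.9 CPM (252.2 to 261.5). KO was higher at both times, by 1.75-fold (1.69 to 1.81) and 1.31-fold (1.27 to 1.34), and the ratio was above 1 in all 8 and all 6 sub-clusters without passing 2-fold in any. Monocytes had 153.6 and 244.3 CPM at dpi2, a ratio of 1.59 (1.52 to 1.67). In neutrophils at dpi2 *Slc11a1* was 70.2 CPM (57.6 to 84.8) in control and 213.8 CPM (197.6 to 231.1) in KO, a ratio of 3.05 (2.48 to 3.77) past the size rule, while T or NK cells had 4.43, 5.42, 0 and 6.25 CPM.

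*Ncoa4* and *Ireb2*, which act on ferritin protein and on the iron-responsive elements shown above, did not pass the size rule between KO and control in macrophages. In the other classes *Ncoa4* had enough UMIs only in monocytes at dpi2 and *Ireb2* only in monocytes and neutrophils at dpi2 and in dendritic cells at both times, and neither passed there. *Ncoa4* was sparse, at 3.86 CPM (3.26 to 4.54), 6.85 CPM (5.94 to 7.86), 10.1 CPM (9.30 to 11.01) and 11.6 CPM (10.6 to 12.6) in macrophages, with ratios of 1.77 (1.43 to 2.21) and 1.14 (1.01 to 1.29), and its dpi4 to dpi2 ratio in control was 2.62 (2.18 to 3.17). In 1 of 8 sub-clusters at dpi2 *Ncoa4* passed the rule, number 7, led by *Gja1*, with 18 and 43 UMIs and a ratio of 2.70 (1.52 to 4.97). *Ireb2* was 36.6, 42.0, 29.1 and 34.1 CPM, with ratios of 1.15 (1.06 to 1.24) and 1.17 (1.09 to 1.26). Over all 5 classes and 4 libraries *Ireb2* lay between 10.1 and 48.4 CPM, its lowest value resting on 1 UMI in 35 neutrophils.

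**Figure D5:**
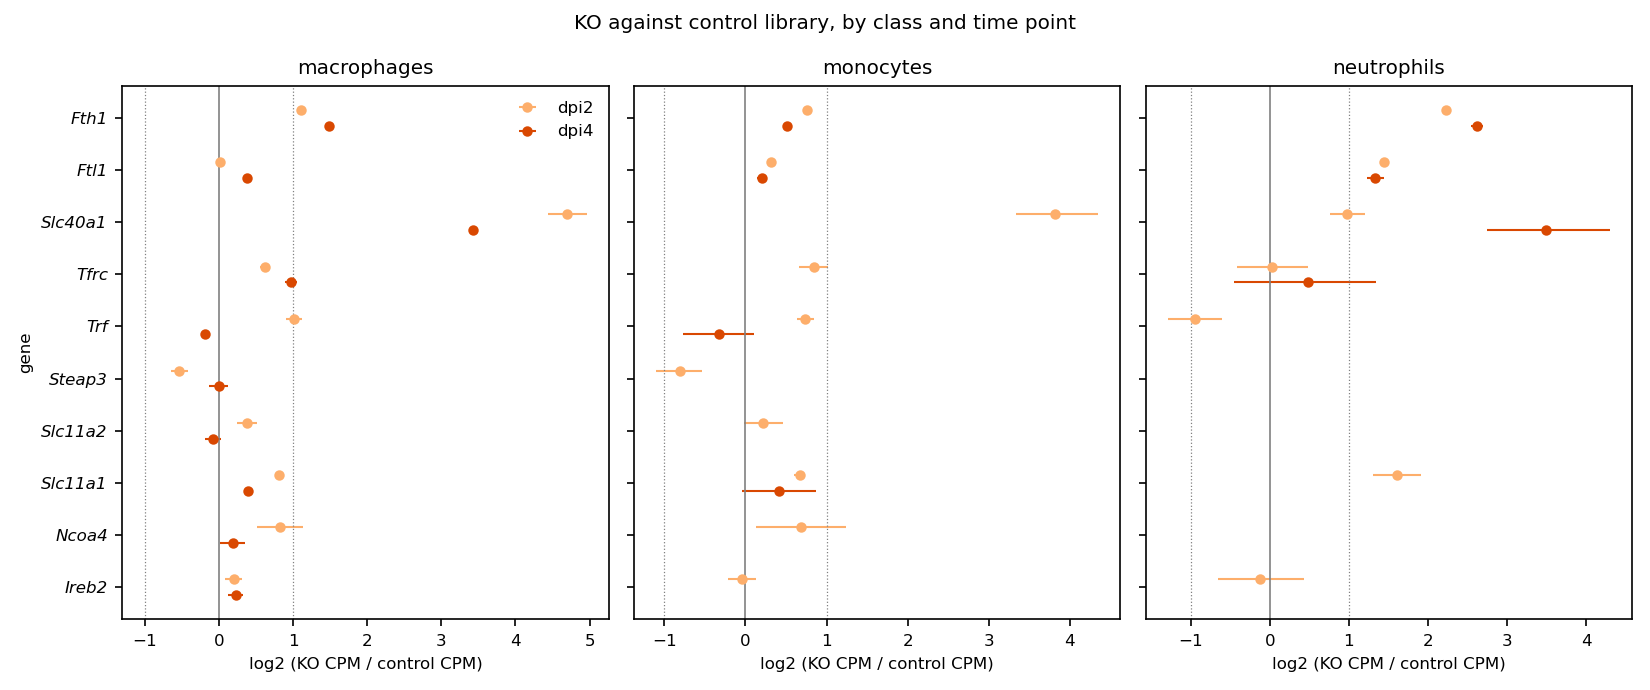
Log2 ratio of KO to control CPM for each member in macrophages, monocytes and neutrophils at dpi2 (light) and dpi4 (dark), with 95% intervals and dotted lines at 2-fold; members under 50 UMIs in a pair are left out. *Slc40a1* lies at 4.69 and 3.43 in macrophages, *Fth1* at 1.11 and 1.49, and *Steap3* is at -0.53 at dpi2.

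Counted over the members, 3 of 10 (*Slc40a1*, *Fth1* and *Trf*) were higher and none lower past the size rule in macrophages at dpi2, where of 11104 genes with at least 50 UMIs 2.28% were higher and 2.12% lower. At dpi4, 2 of 10 (*Slc40a1* and *Fth1*) were higher and none lower, against 0.979% and 1.40% of 11949 genes. The median log2 ratio over the 10 was 0.71 at dpi2 and 0.31 at dpi4, against -0.01 and 0.01 over all genes counted. All 10 members had enough UMIs in macrophages. In monocytes 1 of 10 was higher at dpi2 and none lower (1.79% and 2.70% of 10012 genes), and at dpi4 only 4 members had 50 UMIs and none passed (1.66% and 1.75% of 3138). In neutrophils 3 of the 7 with enough UMIs at dpi2 were higher and none lower (2.47% and 6.70% of 5825), where the median log2 ratio of all genes was itself -0.29, and 3 of 4 at dpi4 (1.99% and 4.48% of 1606).

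In dendritic cells none of 7 passed at dpi2 (1.51% and 1.44% of 8120 genes), and at dpi4 1 of 9 was higher and 1 lower (0.734% and 0.689% of 8850). In T or NK cells none of 2 and none of 3 passed (1.73% and 2.95% of 1964 genes at dpi2, 0.936% and 1.5% of 3740 at dpi4). Between dpi4 and dpi2 in control macrophages 3 members were higher (*Slc40a1*, *Trf* and *Ncoa4*) and 2 lower (*Tfrc* and *Steap3*), against 9.72% and 6.05% of all 11737 genes, and in KO macrophages 2 were higher (*Slc40a1* and *Trf*) and none lower, against 8.84% and 4.90% of 11439. These comparisons share libraries with those of KO to control.

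Among 32 other iron genes (uptake, iron-sulfur cluster assembly, hepcidin pathway and iron-binding proteins), 5 genes in all passed between KO and control in macrophages, monocytes or neutrophils. In macrophages 1 of 19 with enough UMIs was higher at dpi2, *Lcn2*, a protein that binds bacterial iron carriers, at 0.506 and 1.92 CPM, where 2.28% of all genes were higher. Summed CPM of the 7 neutrophil markers in macrophages was 110.1 in control and 258.6 in KO at dpi2, none of them at 0, and *Lcn2* in neutrophils was 191.8 and 534.7 CPM; the part of neutrophil RNA in the *Lcn2* value was not tested. At dpi4 1 of 21 was lower, *Steap4*, at 0.949 and 0.327 CPM, where 1.40% of all genes were lower. The median log2 ratios of the list were 0.10 and 0.03. In neutrophils at dpi2, with 2.47% of all genes higher and 6.70% lower, 2 of 12 were higher, *Lcn2* (191.8 and 534.7 CPM, ratio 2.79, 2.46 to 3.17) and *Steap4* (20.8 and 64.9 CPM, ratio 3.12, 2.14 to 4.69), and 1 was lower, lactoferrin (*Ltf*; 28.0 and 7.36 CPM, ratio 0.263, 0.15 to 0.450). In monocytes *Lyrm4*, of iron-sulfur assembly, was the 1 of 17 higher at dpi2 (6.76 and 19.1 CPM; 1.79% of all genes) and *Hfe* the 1 of 5 higher at dpi4 (16 and 44 UMIs; 1.66%). No gene of this list passed in the same direction at both times in macrophages, monocytes or neutrophils. From dpi2 to dpi4, 3 of 20 were higher and 2 lower in control macrophages and 2 of 20 higher and 2 lower in KO, where 9.72% and 6.05% of all genes in control and 8.84% and 4.90% in KO did so. *Hfe* was 4.37-fold and 3.01-fold and ceruloplasmin (*Cp*), an oxidase that works with ferroportin, 10.9-fold and 9.64-fold higher in control and KO macrophages, and the zinc and iron importer *Slc39a14* was lower in both, by ratios of 0.219 and 0.175. In control only, *Steap4* was past the rule upward (5 and 52 UMIs) and *Glrx5*, of iron-sulfur assembly, downward (95.3 and 46.4 CPM, ratio 0.487), and in KO only, *Lcn2* downward (57 and 2 UMIs), with no test of the difference between genotypes.

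Over the 17 class by library profiles of at least 50 cells, the genes most like *Fth1* in log2(CPM + 1) were *Creg1* (Pearson r = 0.953), *Ftl1* (0.948) and *Slc11a1* (0.911), among 9158 genes. *Slc11a1* was most like *Lamp2*, a lysosomal membrane protein (0.959), *Zmiz1* and *Gm10116* (0.958 each), *Slc40a1* like *Rcbtb2* (0.870), *AB124611* (0.85) and *Snx11* (0.833), and *Tfrc* like *Edem3* (0.873), *Gsk3b* (0.853) and *Idua* (0.852). The 17 profiles share 4 libraries and differ in depth, so these values describe likeness only. Among the members *Slc40a1* and *Fth1* had r = 0.69, *Slc40a1* and *Ftl1* 0.55, and *Trf* and *Tfrc* -0.03.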

How the data were processed

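Droplet 3′ single-cell RNA-seq of CD45+ cells from injured muscle was used, 1 library per group. The authors deposited raw UMI counts per gene and barcode from Cell Ranger 6.1.2 (version per the labels) with the mm10 genome, without normalization; the lowest barcode totals were 500 or 501. The labels and the methods name different kit versions. Barcodes with at least 500 genes and under 10% mitochondrial UMIs were kept, and doublets were removed by Scrublet score at 0.8% per 1000 cells (289, 115, 150 and 100). In place of the study's miQC, scDblFinder, Harmony and SingleR, libraries were analysed jointly without integration (scanpy 1.11.5, 2000 variable genes without the iron genes, 30 components, 15 neighbours, Leiden resolution 1). The 27 clusters were named from fixed markers, and all markers of the classes used matched; 2 clusters stayed unnamed as shallow. Among the 10 leading genes of a named cluster, no marker belonged to another class. The naming rule itself required this of clusters with no marker of their own there. Several macrophage clusters, among them numbers 1 and 2, held no macrophage marker among these 10. A cluster led by *Acta1* (427 cells, 354 of them in the control dpi4 library) took the name of muscle cells from 3 markers and was kept apart from macrophages. UMIs were summed per class and library. Libraries held 57010520 to 80228489 UMIs, and macrophages 29645488 to 54799017. The intervals and size rule were tested on simulated counts that held counting error only. Spread between cells or mice was not simulated, so that test does not cover it. Named were all 10 members, genes of the other iron list by the rule below, the 3 genes most like *Slc40a1*, *Fth1*, *Tfrc* and *Slc11a1* (at least 1000 UMIs over the profiles), *Hmox1*, *Spic*, *Bach1*, *Lyz2* and leading genes; the rule asked the other iron genes to pass in the same direction at both times, which none did, and *Hfe*, *Cp*, *Slc39a14*, *Lcn2*, *Steap4*, *Ltf*, *Glrx5* and *Lyrm4*, which passed in single comparisons, were chosen after their values were seen. Results for 1 cluster and 2 sub-clusters of monocytes and macrophages are not reported here. The members and lists were chosen with earlier results of these data known. Alternatives were those of the closing section, with edgeR 4.0.16 for TMM factors.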

Additional observations from a re-analysis of the deposited data

Results flagged for a closer look

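*Trf* was on opposite sides of equality at the 2 times, with both counting intervals leaving out 1. In macrophages the KO to control ratio was 2.01 at the earlier and 0.884 at the later time. In dendritic cells it was 1.503 (95% interval 1.24 to 1.83) and 0.877 (0.788 to 0.977). Each time point was 1 library per genotype, so the difference between the times was not tested.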

How the results depend on the processing

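No paired analysis was possible because each group had 1 library, and none could be left out in turn. In macrophages the median log2 ratio over the members stayed between 0.68 and 0.77 at dpi2 and between 0.26 and 0.32 at dpi4 in every alternative run, and no ratio past the size rule changed direction. *Slc40a1* and *Fth1* in macrophages ranged over log2 ratios of 4.51 to 5.20 and 1.05 to 1.12 at dpi2 and 3.08 to 3.55 and 1.39 to 1.51 at dpi4. Counts of members past the rule moved by over 1.5 times as follows. With 1.5-fold in place of 2-fold they were 6 (macrophages), 7 (monocytes), 5 (neutrophils) and 2 (dendritic cells) at dpi2, 1 in T or NK cells at dpi4, and 4 between dpi4 and dpi2 in KO macrophages. With monocytes and macrophages pooled they were 2 at both times against 1 and 0 in monocytes, and 3 against 5 between the times in control. In the few monocytes of dpi4, clustering each library by itself gave 3 and no UMI minimum 2, against 0. In dendritic cells at dpi2 the limit of 5% mitochondrial UMIs and separate clustering each gave 1 against 0, and at dpi4 the count of 2 became 1 with 200 genes per cell, with doublets kept, at resolution 2 and with cells weighted alike, and 0 with 5% mitochondrial UMIs or 200 UMIs per pair. In T or NK cells doublets kept gave 2 at dpi2 and 1 at dpi4, 5% mitochondrial UMIs 1 at dpi2 and no UMI minimum 1 at dpi4, against 0. The cause was not tested. After seeing the data, unnamed clusters were added to neutrophils (4 at dpi2, 3 at dpi4) and, with the *Acta1*-led cluster, to macrophages (3 at both times), and the *Slc40a1*-led sub-cluster was left out (3 at both times). In neutrophils at dpi2 *Slc40a1*, just under 2-fold, passed with TMM scaling (log2 ratio 1.28) and with doublets kept (1.31).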
